A study of Mus musculus with 40 samples.

Results

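The comparison described here set the cortex of mice collected 24 h after the last of 4 closed head injuries (4xCHI, 3 samples) against sham-injured cortex (Sham, 4 samples), which makes 7 of the 40 RNA-sequenced samples of the study. The members were taken from the injury and time labels of the samples alone. Each sample was bulk RNA of the left somatomotor cortex of a female 3xTg-AD mouse on C57BL/6J, aged 2 to 4 months per the study's methods. All groups, Sham included, carried the human APP and human tau transgenes of that line, both driven by the neuronal Thy1.2 promoter. An injury was a weight dropped on the intact skull under isoflurane with the head free to rotate, given once daily, so that the 4xCHI samples were collected 96 h from the start. Sham mice received anesthesia without the impact. Per the methods they were matched to different numbers of exposures and pooled, and the number of exposures of each Sham sample is not in the labels, which give time 0. The other groups cited below were collected 24 h after 1, 2, 3 or 5 injuries (1xCHI, 2xCHI, 3xCHI and 5xCHI). Samples are named by their number in the labels: Sham 6, 20, 35 and 39 against 4xCHI 24, 25 and 40. The Sham sample numbered 6 is the only one of the 7 numbered 18 or below, and the counts over all genes and the medians of the gene lists are therefore also given without it.

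Closed head injury without fracture stretches axons and shifts ion balance and energy use in neurons, and astrocytes and microglia answer by changing shape and expression. Reactive astrocytes are known for raising the intermediate filament genes Gfap and Vim, and activated microglia for raising lysosomal and lipid-handling genes. Repeated impacts, repeated anesthesia and handling also engage the glucocorticoid axis. In bulk tissue, fewer cells of a type and less RNA per cell cannot be told apart.

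The deposited values were estimated counts per gene, which summed to between 17903157 and 27859547 per Sham sample and between 18066298 and 20171417 per 4xCHI sample. Of 55539 features, 15224 had enough counts to be tested. Levels are given as CPM, the count of a gene scaled to a common library total, and differences as log2 of 4xCHI over Sham with their standard error (SE) and p from edgeR's quasi-likelihood test. Cortical layer markers summed to 794 to 1015 CPM over the 7 samples, beside 63.4 to 94.2 CPM for hippocampal and 341 to 1462 CPM for striatal neuron markers, the last above the layer markers in Sham 39 alone. Markers of the choroid plexus stood far higher in 4xCHI 24, and markers of striatal neurons in Sham 39, than in any other of the 7 samples, with values given below. Replicates differed by more than counting noise in every pair, so that none was a library deposited a second time, and whether each sample is 1 animal rests on the series' design text.

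No gene passed an adjusted p of 0.05 in the quasi-likelihood test of edgeR after Benjamini-Hochberg adjustment, 0 of 15224 or 0%, and the smallest adjusted p was 0.674, for Robo3. DESeq2 called 9 genes, all lower after 4xCHI, and limma called 0. The DESeq2 calls came to 4 without Sham 6, namely Robo3, Nktr and Trib2 lower and Gm11518 higher, and to 0 in a fit of samples 19 to 40 of all groups. At an unadjusted p under 0.05 edgeR held 579 genes (3.80% of those tested), of which 233 (1.53%) were higher and 346 (2.27%) lower after 4xCHI, and limma held 567. The 579 became, without Sham 6, 771 (5.06%), with 334 (2.19%) higher and 437 (2.87%) lower, and again none passed the adjustment. The 3 4xCHI samples were all above all Sham samples for 388 genes (2.55%) and all below them for 474 (3.11%), which without Sham 6 became 849 (5.58%) and 943 (6.19%). The median SE of a log2 difference was 0.12, and the median difference over all tested genes was 0.00. The genes named next are therefore those at the front of the ranking, described by their values, and none of them was called by edgeR in this fit.

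Robo3, an axon guidance receptor of the roundabout family, led the ranking and was lower after 4xCHI. It lies on chromosome 9 at 37415669 to 37433246 on the minus strand of GRCm38. Its level was 61.0, 53.9, 66.0 and 59.3 CPM in Sham 6, 20, 35 and 39 against 33.9, 36.4 and 42.1 CPM in 4xCHI 24, 25 and 40. The groups did not overlap, and the highest 4xCHI sample lay below the lowest Sham sample by more than the SD of either group. The means were 60.03 ± 5.01 CPM in Sham (SD, n = 4) and 37.5 ± 4.24 CPM after 4xCHI (SD, n = 3). The log2 difference was -0.67 ± 0.10 (SE), with an unadjusted p of 4.43e-05, and -0.67 without Sham 6. DESeq2 gave an adjusted p of 8.55e-06, and 0.000771 without Sham 6. With no filter on low counts, edgeR gave Robo3 an adjusted p of 0.0131.

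Col4a2 and Pxdn, both among the 12 lower genes at the front of the ranking, are genes of the basement membrane, the collagen sheet around brain vessels, and are given together with Col4a1, which was picked after its value was seen. Col4a2, which encodes a chain of type IV collagen, was at 54.8, 60.4, 57.4 and 55.8 CPM in Sham and 43.8, 41.5 and 45.1 CPM after 4xCHI, in the same sample order. The groups were apart, and the log2 difference was -0.39 ± 0.07 (SE) with an unadjusted p of 0.000245. Col4a2 (chromosome 8, 11312805 to 11449287, plus strand) starts head to head with Col4a1 (11198423 to 11312826, minus strand), the partner chain, and the annotated ends overlap. Col4a1 was lower by less, at 41.8, 45.5, 44.1 and 43.9 CPM in Sham against 41.0, 32.8 and 34.6 CPM, with 4xCHI 24 just below the lowest Sham sample and a log2 difference of -0.27. Pxdn, a matrix peroxidase that crosslinks type IV collagen, read 51.8, 59.9, 48.2 and 59.0 CPM in Sham and 32.9, 42.0 and 38.7 CPM after 4xCHI. Its log2 difference was -0.53 ± 0.11 (SE) with an unadjusted p of 0.000673. DESeq2 called Col4a2 at an adjusted p of 0.00556 and Pxdn at 0.0128, and neither without Sham 6. The endothelial marker list as a whole, 22 genes, had a median log2 difference of -0.03, and 0.12 without Sham 6.

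Nktr, a cyclophilin-related protein of the nucleus, was at 231, 222, 216 and 208 CPM in Sham and 167, 177 and 167 CPM after 4xCHI, with no overlap. Its log2 difference was -0.36 ± 0.07 (SE), and DESeq2 gave an adjusted p of 0.000503, and 0.0422 without Sham 6. Several genes with very long transcripts shared this direction. Smg1, a kinase of nonsense-mediated decay, was at 228, 224, 230 and 217 CPM against 185, 163 and 184 CPM, a log2 difference of -0.34. Kmt2a, a histone methyltransferase, was at 192, 215, 208 and 200 CPM against 171, 148 and 165 CPM, a log2 difference of -0.33. The chromatin genes Chd9 (-0.33) and Dot1l (-0.39), the microtubule-associated Eml5 (-0.30), the endocytic adaptor Hip1 (-0.31) and polycystin gene Pkd1 (-0.37) lay in the same range of log2 differences. DESeq2 adjusted p-values were 0.00644 for Smg1, 0.00737 for Eml5, 0.0271 for Chd9, 0.0311 for Kmt2a and 0.0487 for Pkd1, and DESeq2 called none of these 5 without Sham 6. A few weakly expressed loci differed by more, namely Gm8108 (-1.55), 4933432I09Rik (-1.45) and 4930590J08Rik (-1.13). Gm8108 read 1.91, 2.00, 1.51 and 1.75 CPM in Sham and 0.660, 0.474 and 0.693 CPM after 4xCHI.

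The genes at the front of the other direction were higher by small steps. Lamtor2, a subunit of the Ragulator complex that anchors nutrient signalling to the lysosome, was at 33.6, 32.6, 32.2 and 31.7 CPM in Sham and 38.6, 45.1 and 37.9 CPM after 4xCHI. The Sham samples lay within 2 CPM of each other and all 4xCHI samples were above them. The log2 difference was 0.32 ± 0.08 (SE) with an unadjusted p of 0.0022. Snrpe, a core protein of the spliceosome, was at 12.1, 9.93, 10.1 and 10.2 CPM against 13.0, 14.6 and 14.3 CPM, a log2 difference of 0.41. Cdt1, which licenses DNA replication and shares its strand with the locus Gm20388, was at 1.25, 1.57, 1.61 and 1.63 CPM against 2.64, 2.68 and 2.33 CPM. Its log2 difference was 0.75 ± 0.21 (SE), and the groups did not overlap. Fgf5, a secreted growth factor, was at 3.66, 4.14, 3.49 and 3.94 CPM against 5.17, 5.58 and 5.59 CPM, a log2 difference of 0.52.

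**Figure D1:**
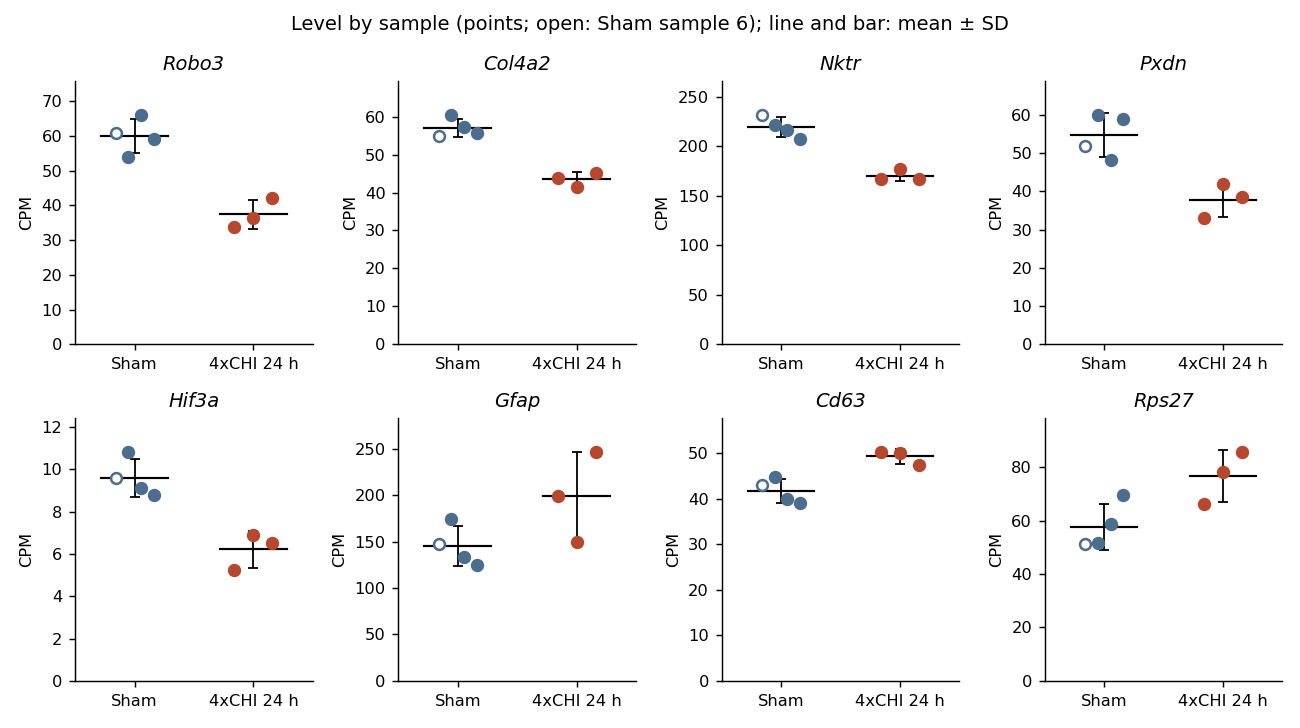
Level (CPM) of 8 genes in the 4 Sham and 3 4xCHI samples at 24 h, each point a sample, the open point Sham 6, the line and bar the mean ± SD. Robo3, Col4a2, Nktr, Pxdn and Hif3a lie lower and Cd63 higher after 4xCHI without overlap, while for Gfap (125 to 174 against 150 to 246 CPM) and Rps27 the groups overlap.

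Further genes with non-overlapping groups were Tbca, a tubulin folding cofactor (log2 difference 0.33), Uqcc2, an assembly factor of a respiratory complex (0.32), Igfbp6, a binding protein of insulin-like growth factors (0.31), Rprm, a cell cycle arrest gene (0.31), Cpne8, a calcium-binding copine (0.28), and D8Ertd738e (0.25). Iqschfp differed by 1.11, but it is a read-through locus that shares its strand with Iqcj and Schip1, so its counts cannot be assigned to it alone. Cd63, a tetraspanin of lysosomes and exosomes, was at 43.0, 44.7, 39.9 and 38.9 CPM in Sham and 50.2, 50.04 and 47.4 CPM after 4xCHI. The log2 difference was 0.24 ± 0.07 (SE) with an unadjusted p of 0.00772, and the groups did not overlap with or without Sham 6.

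Genes of the cytosolic ribosome, the machine that makes protein, lay uniformly but slightly on the higher side. All 79 ribosomal protein genes of the list were tested and all 79 had a log2 difference above 0, against 7549 of all 15224 tested genes (7607 without Sham 6). Their median was 0.16, and 18 of the 79 were higher at an unadjusted p under 0.05 (1.53% over all genes), while 6 had 4xCHI samples all above Sham (2.55% over all genes). Without Sham 6 the median was 0.15, again with 79 above 0, 14 at an unadjusted p under 0.05 (2.19% over all genes) and 10 all above Sham (5.58% over all genes). Without 4xCHI 25 the median was 0.08, so that this sample carried much of the size. Rps27, the member with the smallest p, was at 51.1, 51.5, 58.7 and 69.6 CPM in Sham and 66.3, 78.2 and 85.6 CPM after 4xCHI. Sham 39 was above 4xCHI 24, and the log2 difference was 0.42 with an unadjusted p of 0.00725. Rpl38 differed by 0.36, from 61.4, 45.1, 60.9 and 70.5 CPM to 65.0, 85.6 and 76.6 CPM. Summed over the list, the level was 9623, 10380, 9092 and 9659 CPM in Sham and 9765, 11960 and 10690 CPM after 4xCHI, so that only 4xCHI 25 and 40 exceeded every Sham sample. Ribosomal protein genes have many near-identical copies elsewhere in the genome, and how the counting shared such reads is not known.

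The nuclear genes of the respiratory chain, which encode the mitochondrial complexes that consume oxygen and make ATP, lay close beside them. Of 75 tested genes 74 were above 0, with a median log2 difference of 0.15. Cycs, cytochrome c, was the exception at -0.06. At an unadjusted p under 0.05 15 were higher (1.53% over all genes) and 0 lower, and 8 were all above Sham (2.55% over all genes). Without Sham 6 the median was 0.16 with 74 above 0, and 13 were higher at an unadjusted p under 0.05 (2.19% over all genes). Then 25 were all above Sham (5.58% over all genes). Without 4xCHI 25 the median was 0.07. Ndufv2, a subunit of complex I, was at 100, 95.0, 97.7 and 95.7 CPM in Sham and 104, 113 and 108 CPM after 4xCHI. Cox7c, a subunit of cytochrome c oxidase, differed by 0.32. The 15 genes encoded by the mitochondrial genome itself had a median of 0.01 with 8 above 0, and -0.01 with 7 above 0 without Sham 6. Among them mt-Nd5 was lower by -0.21, at 2576, 2739, 2873 and 2681 CPM in Sham and 2568, 2056 and 2400 CPM after 4xCHI.

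These lists consist of genes with short transcripts, with a median longest transcript of 1059 nt for the ribosome and 1141 nt for the respiratory chain, and the whole comparison was ordered by transcript length. Across 15215 genes with a length, Spearman's rho between the log2 difference and the length of the longest transcript was -0.39, and -0.42 without Sham 6, a description over genes that share the same 7 samples. In the shortest length decile (168 to 1319 nt) the median log2 difference was 0.12, with 89 genes higher and 4 lower at an unadjusted p under 0.05. In the longest decile (6809 to 123179 nt) the median was -0.10, with 1 gene higher and 143 lower. Per sample, the correlation of a gene's level with length relative to the mean of all samples was 0.131, 0.360, 0.345 and 0.314 in Sham and 0.215, -0.119 and 0.187 after 4xCHI, with 4xCHI 25 lowest. After the length and GC trends of each sample were removed, the decile medians lay between -0.003 and 0.019. Over all 15224 genes, 170 were then higher and 192 lower at an unadjusted p under 0.05. The ribosomal median was then 0.07 with 63 of 79 above 0 and 4 higher at that p. It was 0.03 with 48 above 0 when Sham 6 was also left out. The respiratory chain median became 0.06 with 59 of 75 above 0 and 3 at an unadjusted p under 0.05, while that of the mitochondrial genome became -0.13 with 2 of 15 above 0. Among the single genes, Robo3 kept a log2 difference of -0.62, Pxdn -0.44, Col4a2 -0.30 and Cdt1 0.75. Nktr came to -0.22, Smg1 to -0.19, Chd9 to -0.20, Kmt2a to -0.16, Pkd1 to -0.19, Lamtor2 to 0.16, Snrpe to 0.22, Uqcc2 to 0.16, Tbca to 0.11 and D8Ertd738e to 0.08. The groups overlapped in these per-sample values, since Sham 6 lay below 4xCHI 24 and 40, and their part in the single results beyond the removal above was not tested.

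**Figure D2:**
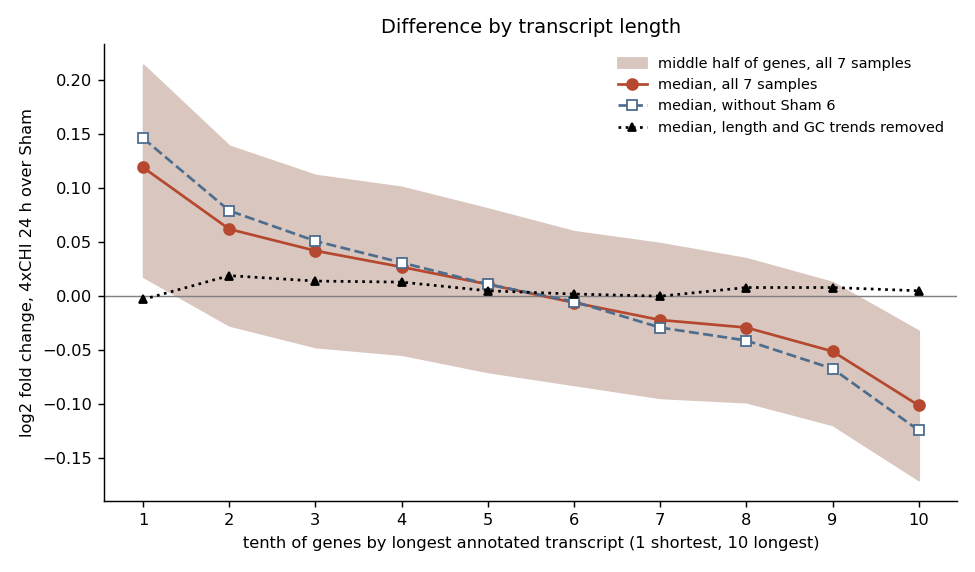
Median log2 difference (4xCHI minus Sham) with quartiles in 10 deciles of longest transcript length, for all samples, without Sham 6 (dashed) and after the length and GC trends were removed (dotted). The median descends from 0.12 in the shortest decile to -0.10 in the longest and is close to 0 throughout once the trends are removed.

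The groups overlapped for most genes of reactive astrocytes. Of 13 pan-reactive astrocyte genes 9 could be tested, with a median log2 difference of -0.01 and 4 above 0, 1 higher (1.53% over all genes) and 1 lower (2.27%) at an unadjusted p under 0.05, and 1 was all below Sham (3.11%). Gfap, the filament protein that marks reactive astrocytes, was at 148, 174, 133 and 125 CPM in Sham and 200, 150 and 246 CPM after 4xCHI. 4xCHI 24 and 40 exceeded every Sham sample, but 4xCHI 25 lay inside the Sham range. The log2 difference was 0.46 ± 0.17 (SE) with an unadjusted p of 0.0202, and without 4xCHI 40 it was 0.27. With the spread of all 39 samples the unadjusted p for Gfap was 0.534. Vim, the partner filament, was at 45.7, 33.8, 27.0 and 29.1 CPM in Sham and 44.8, 27.8 and 51.8 CPM after 4xCHI, and again 4xCHI 25 was the low one. Its log2 difference was 0.30 with an unadjusted p of 0.211, and 0.47 with 0.0481 without Sham 6, its highest Sham sample. Osmr, the oncostatin M receptor, went the other way at 3.77, 3.79, 4.08 and 4.06 CPM against 3.30, 1.89 and 3.07 CPM, a log2 difference of -0.50. Lcn2, a secreted protein that is strongly induced in reactive astrocytes, was too low to test, with 5, 6, 1 and 2 estimated counts in Sham and 3, 0 and 0 after 4xCHI. Timp1, a protease inhibitor of the same list, had 12, 3, 9 and 0 counts against 7, 11 and 11. Without Sham 6, 6 of the 9 tested genes were above 0, with 2 higher (2.19% over all genes) and 0 lower at an unadjusted p under 0.05. The list median was 0.25 without 4xCHI 25 and 0.09 without Sham 6, so its sign rested on single samples. Its summed level was 240, 244, 200 and 199 CPM in Sham and 290, 206 and 345 CPM after 4xCHI.

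Of the genes assigned to the A1 form of reactivity, 11 were tested with a median of -0.08 and none at an unadjusted p under 0.05. The A1 median without Sham 6 was 0.055 with 7 of 11 above 0 and 1 lower at an unadjusted p under 0.05 (2.87% over all genes). Of the A2 genes 8 were tested with a median of -0.01, and 0.08 without Sham 6. Cd109, a membrane protein of the A2 list, was the exception at 0.600, 0.464, 0.699 and 1.13 CPM in Sham and 1.92, 0.842 and 2.28 CPM after 4xCHI. Its log2 difference was 1.25 with an unadjusted p of 0.0121, and Sham 39 lay above 4xCHI 25. The 20 homeostatic astrocyte genes had a median of -0.01, and -0.04 without Sham 6. Then 3 were lower at an unadjusted p under 0.05 (2.87% over all genes). Kcnj10, the inwardly rectifying channel by which astrocytes clear potassium, was the 1 member lower at that p with all samples (2.27% over all genes). It was at 179, 183, 206 and 194 CPM against 174, 149 and 166 CPM.

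Of the microglial lists, that of the disease-associated state lay mostly above 0 and that of the homeostatic state on both sides of it. Of 20 genes of disease-associated microglia, the state seen around amyloid, 17 were tested, with a median log2 difference of 0.12 and 14 above 0. At an unadjusted p under 0.05 3 of them were higher (1.53% over all genes). They were Cd63, the lysozyme gene Lyz2 and the chemokine gene Ccl6. Without Sham 6 the median was 0.14 with 13 above 0 and 2 higher at that p (2.19% over all genes), Ccl6 then being at 0.0518. Once the length and GC trends were removed the median was 0.07, with 2 higher and 1 lower at that p. Over all 15224 genes the counts were then 170 and 192. Lyz2 was at 3.82, 3.04, 3.01 and 3.04 CPM in Sham and 6.21, 3.31 and 4.46 CPM after 4xCHI, where 4xCHI 25 fell between Sham 6 and the other Sham samples. Ccl6 was at 0.546, 0.607, 0.645 and 0.451 CPM against 0.990, 0.947 and 0.842 CPM with no overlap, a log2 difference of 0.71 and an unadjusted p of 0.0299. Cst7, Itgax and Clec7a, markers of the fully developed state, were below the count minimum. The 16 homeostatic microglial genes had a median of 0.02 with 9 above 0, and -0.03 with 7 above 0 without Sham 6. Lysosomal genes as a list were above 0 for 19 of 24 with a median of 0.07, and 3 were higher at an unadjusted p under 0.05 (1.53% over all genes), including Hexa (0.18). The lysosomal median without Sham 6 was 0.07 with 18 above 0 and again 3 higher at that p (2.19% over all genes). With the length and GC trends removed 1 lysosomal gene was higher at that p, beside 170 of all 15224 genes.

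Genes of soluble immune mediators were mostly too low to test. Of 31 cytokine and chemokine genes only 8 passed the count minimum, with a median log2 difference of 0.06 and 0 at an unadjusted p under 0.05. Without Sham 6 the median was 0.07 and 1 was higher at that p (2.19% over all genes). Il1b had 7, 8, 13 and 2 estimated counts in Sham and 1, 4 and 10 after 4xCHI. Tnf had 0, 2, 0 and 0 counts against 0, 1 and 0, and Il6 had 1, 0, 3 and 1 against 0, 0 and 1. Ccl2, which draws in monocytes, had 0, 0, 1 and 1 counts against 1, 3 and 1. Cxcl10, an interferon-induced chemokine, had 7, 6, 0 and 1 counts against 15, 9 and 1. A difference in these genes was not detectable at this depth, where a count of 0 allows up to 3 reads. Of 18 complement genes 14 were tested with a median of 0.08, 8 above 0 and none at an unadjusted p under 0.05. Without Sham 6, 12 were above 0 and 1 was higher at that p (2.19% over all genes). C4b, which astrocytes raise when reactive, was at 24.4, 29.4, 16.2 and 19.9 CPM in Sham and 30.0, 18.8 and 39.4 CPM after 4xCHI, with overlapping groups and a log2 difference of 0.39. C3 had 10, 14, 4 and 11 counts against 13, 6 and 11. Interferon-response genes (20 tested) had a median of -0.01 that became 0.23 without Sham 6, and antigen presentation genes (15 tested) a median of 0.02 that became 0.07. None of 20 markers of neutrophils and lymphocytes passed the count minimum. Genes of the MAPK signalling pathway had a median of 0.02 over 15 genes with 10 above 0, and -0.01 with 5 above 0 without Sham 6, with 0 at an unadjusted p under 0.05 either way.

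Immediate early genes, which neurons switch on within minutes of activity, spread widely within both groups. The 30 genes had a median log2 difference of 0.09 with 19 above 0, and -0.06 with 12 above 0 without Sham 6. At an unadjusted p under 0.05 2 were higher and 0 lower (1.53% and 2.27% over all genes), and without Sham 6 2 were higher and 3 lower (2.19% and 2.87%). Summed, they were at 1276, 2911, 2251 and 1660 CPM in Sham and 1405, 2978 and 1987 CPM after 4xCHI, so that a low and a high sample stood in each group. Fos was at 18.3, 73.6, 33.9 and 18.7 CPM in Sham and 11.8, 98.1 and 38.2 CPM after 4xCHI, with complete overlap. Jun and Jund, partners of Fos in the AP-1 factor, were steadier. Jun was at 54.8, 43.9, 40.0 and 47.3 CPM against 52.2, 62.1 and 61.7 CPM, a log2 difference of 0.34 with an unadjusted p of 0.0115. Jund was at 116, 126, 116 and 112 CPM against 127, 153 and 131 CPM, a log2 difference of 0.22 without overlap.

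In the list of genes raised by glucocorticoids, 3 members had 4xCHI samples all below Sham, against 3.11% over all genes, and 5 without Sham 6, against 6.19%. Of 19 tested, 14 were below 0, the median was -0.06, and 3 were lower (2.27% over all genes) and 0 higher at an unadjusted p under 0.05. Without Sham 6 the median was -0.14 with 4 lower at that p (2.87% over all genes). Hif3a, a hypoxia-inducible factor subunit that is a glucocorticoid target in brain, was at 9.60, 10.8, 9.13 and 8.79 CPM in Sham and 5.22, 6.89 and 6.53 CPM after 4xCHI. The groups were apart, and the log2 difference was -0.62 ± 0.15 (SE) with an unadjusted p of 0.00175. Plin4, a lipid droplet coat protein, was at 8.40, 13.5, 7.04 and 6.25 CPM against 5.66, 5.42 and 4.80 CPM. Its log2 difference of -0.74 was drawn in part from Sham 20, without which it was -0.44. Zbtb16, a transcription factor, was at 44.1, 53.9, 72.9 and 43.9 CPM against 46.8, 38.4 and 33.6 CPM, where 4xCHI 24 overlapped Sham. Fkbp5, the receptor co-chaperone most used as a readout of the hormone, was at 22.2, 26.4, 30.9 and 27.6 CPM against 24.3, 23.5 and 18.9 CPM, with overlap. The circadian clock list had a median of -0.04 over 18 genes, and -0.095 without Sham 6. Per2, which follows both the clock and glucocorticoids, was at 36.8, 60.03, 42.7 and 48.2 CPM against 30.7, 43.8 and 32.7 CPM, a log2 difference of -0.39. The hour of collection is not in the labels, and its part in these values was not tested.

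Genes of Alzheimer's disease, amyloid and tau processing lay on both sides of 0. The 22 genes had a median log2 difference of 0.01, and a separate list of 22 tau kinases and phosphatases also had 0.01 with 0 at an unadjusted p under 0.05. Without Sham 6 these medians were -0.01 and -0.04. Clu, the astrocytic chaperone clusterin, was at 704, 744, 683 and 749 CPM in Sham and 780, 820 and 807 CPM after 4xCHI, without overlap and with a log2 difference of 0.16. Abca7, a lipid transporter and risk gene, was at 22.9, 26.4, 24.4 and 23.5 CPM against 21.6, 20.4 and 20.9 CPM, a log2 difference of -0.21. Mouse Mapt, which encodes tau, was at 567, 621, 581 and 567 CPM against 593, 605 and 584 CPM. The human MAPT transgene was at 14.9, 21.3, 23.5 and 32.7 CPM against 26.8, 13.9 and 18.2 CPM, from 265 to 596 estimated counts. Its log2 difference was -0.23 ± 0.27 (SE), and the groups overlapped in part. Human APP was listed at 0 in all 7 samples, although every mouse carries an APP transgene. How reads shared by the mouse and human copies were divided is not known. Genes that the study singled out in its own co-expression modules of these samples, 10 in number, had a median of 0.16 with 8 above 0 and 1 higher at an unadjusted p under 0.05, against 1.53% over all genes (0.17, 9 and 1, against 2.19%, without Sham 6). With the length and GC trends removed its median was 0.05 with 0 at that p. Because that list was drawn from the same samples, it is not independent evidence.

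The receptor, neuronal, oligodendrocyte, vascular, stress, cholesterol and hemoglobin lists had medians between -0.20 (hemoglobin) and 0.15 (antioxidant genes), beside 0.00 for all genes. Glutamate and GABA receptor genes were below 0 for 26 of 34 with a median of -0.06, and -0.10 without Sham 6, but -0.01 with 15 above 0 once the length and GC trends were removed. Among them Gabrg3, a GABA receptor subunit, differed by -0.21. Neuronal markers (20 genes) had a median of -0.02 and cortical layer markers (15 genes) of -0.07, with Syt6, a marker of deep layer neurons, at -0.51. Inhibitory neuron peptides (15) had 0.01, myelin genes (20) 0.01, precursors of oligodendrocytes (12) -0.045, mural cells (12) -0.10 and axon injury genes (9 of 14 tested) -0.07. The myelin median without Sham 6 was 0.08 with 17 of 20 above 0, the endothelial median 0.12 with 18 of 22, the mural median 0.16, the oligodendrocyte precursor median 0.04, the neuronal median -0.04, the layer median -0.10, the peptide median -0.08 and the axon injury median -0.07. Heat shock genes (23) had a median of 0.00 (-0.01 without Sham 6) with Hspe1, the mitochondrial co-chaperonin, at 0.29. Genes of the integrated stress response (14) had 0.05, and 0.04 without Sham 6. Antioxidant and metallothionein genes (19) had 0.15 with 0 at an unadjusted p under 0.05, and 0.16 with 2 higher (2.19% over all genes) without Sham 6. Their median was 0.05 once the length and GC trends were removed. Cholesterol synthesis genes were below 0 for 20 of 24 with a median of -0.07 and 0 at an unadjusted p under 0.05. Without Sham 6, the sample with their highest summed level in Sham, the median was -0.06 with 9 of 24 above 0. Hemoglobin genes, which track blood in the tissue, were below 0 for 5 of 5 with a median of -0.20, and -0.29 without Sham 6, and the median was -0.415 once the length and GC trends were removed. Xist, whose longest transcript is 17946 nt, was lower by -0.34, and -0.17 with the length and GC trends removed.

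**Figure D3:**
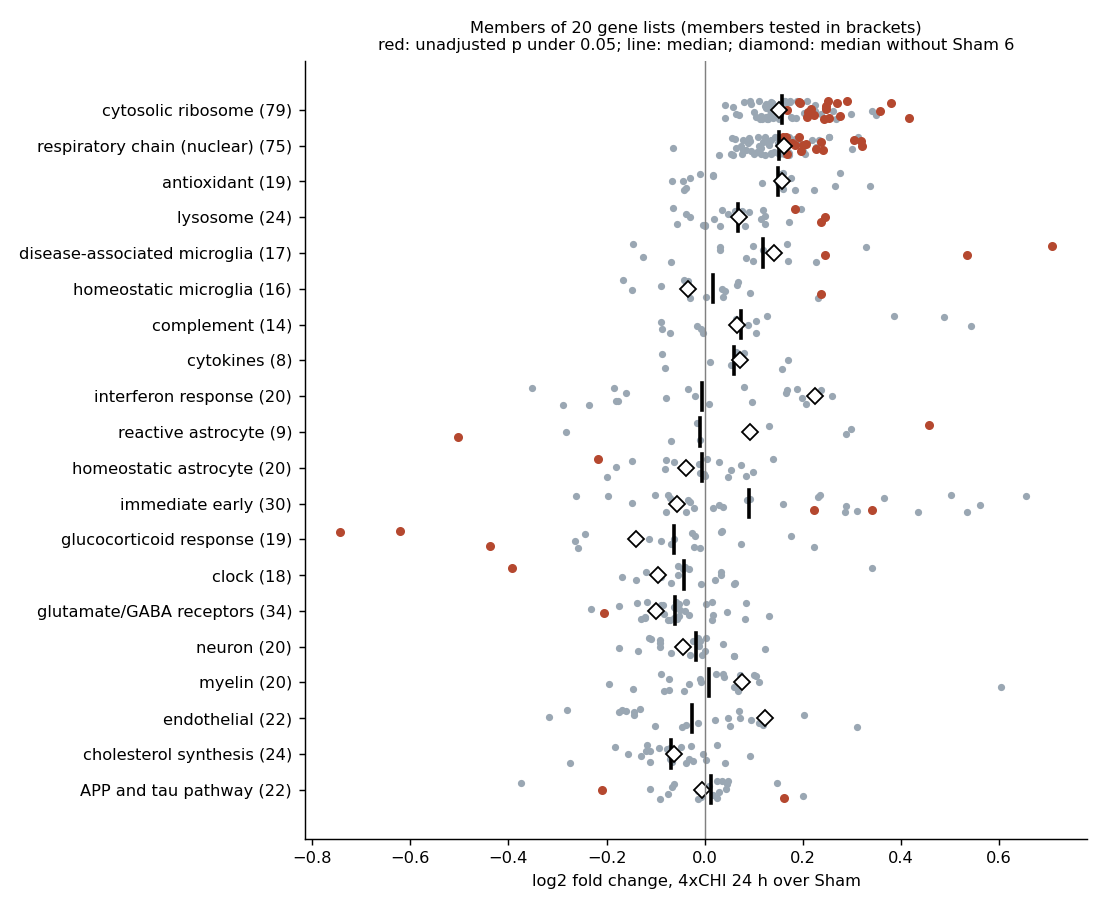
Log2 difference (4xCHI minus Sham) of the members of 20 gene lists, each point a gene, red at an unadjusted p under 0.05, with the list median as a line and the median without Sham 6 as a diamond. The ribosomal and respiratory chain lists lie almost wholly above 0 (medians 0.16 and 0.15).

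Far larger differences came from markers of tissue other than cortex. Of 13 choroid plexus markers 5 were tested and all 5 were above 0, with a median log2 difference of 1.98, and 1.96 without Sham 6. Ttr, transthyretin, which the choroid plexus secretes, was at 17.0, 13.0, 2.96 and 15.6 CPM in Sham and 785, 6.26 and 9.01 CPM after 4xCHI. 4xCHI 24 alone carried the difference of 4.46, since the other 4xCHI samples lay within the Sham range. Kl, the klotho gene, differed by 2.70, with 39.8, 2.31 and 4.01 CPM after 4xCHI and 1.85 to 2.65 CPM in Sham, so that 4xCHI 40 was also above Sham but by little. Without 4xCHI 24 the difference of Kl was 0.43. 1500015O10Rik differed by 1.76, with 10.3, 1.47 and 2.48 CPM after 4xCHI and 1.13 to 1.69 CPM in Sham, and by 0.50 without 4xCHI 24. Slc4a5, too low to test, had 1, 7, 0 and 4 counts in Sham and 126, 2 and 2 after 4xCHI, and Folr1 had 7, 15, 3 and 11 against 99, 1 and 12. The summed list was at 23.0, 19.1, 8.76 and 22.7 CPM in Sham and 857, 11.0 and 18.1 CPM after 4xCHI. Without 4xCHI 24 the list median was -0.36 and Ttr differed by -0.66.

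Meningeal genes had a median of 0.08 over 16 genes, and 0.18 without Sham 6. Col1a1, the fibrillar collagen of the meninges, was at 13.4, 7.86, 6.39 and 7.77 CPM in Sham and 21.7, 8.53 and 21.6 CPM after 4xCHI, a log2 difference of 0.97. Summed, the list was at 1155, 831, 784 and 823 CPM against 1115, 413 and 1026 CPM, with 4xCHI 25 lowest and Sham 6 highest. 4xCHI 25, the lowest in meningeal genes, was also the lowest 4xCHI sample for Gfap, Vim, C4b and Cd109, and the part of meningeal tissue in those values was not tested. Striatal neuron markers were below 0 for 11 of 11 tested genes with a median of -0.59 (-0.91 without Sham 6) and 0 at an unadjusted p under 0.05. Summed, they were at 371, 397, 485 and 1462 CPM in Sham and 554, 341 and 502 CPM after 4xCHI. Sham 39 alone was high, with the dopamine receptor gene Drd1 at 41.0 CPM there and 6.64 to 9.24 CPM in the other Sham samples.

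**Figure D4:**
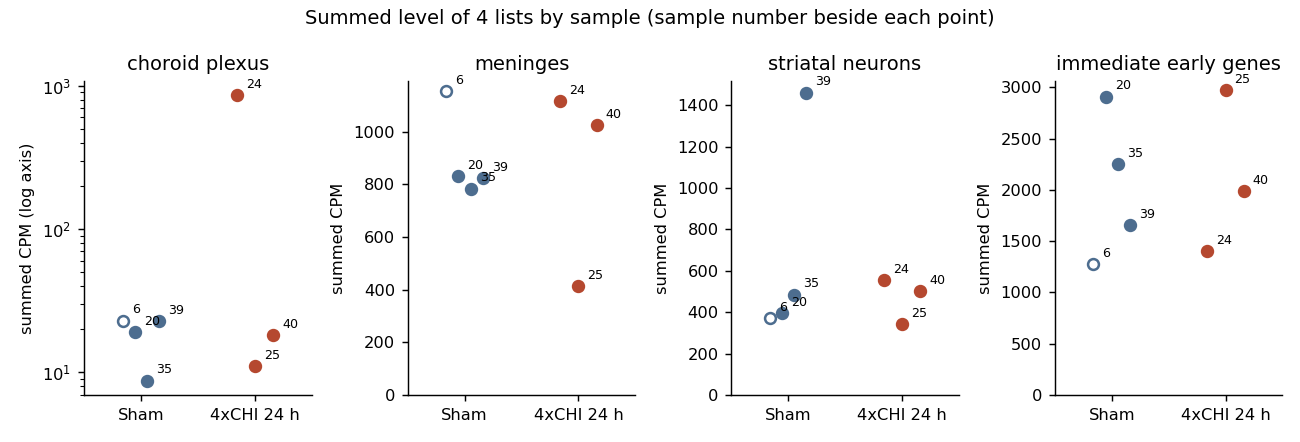
Summed level (CPM) of choroid plexus (log axis), meningeal, striatal neuron and immediate early genes in each Sham and 4xCHI sample, labelled by sample number. 4xCHI 24 stands out for choroid plexus (857 CPM against at most 23.0 in the others), Sham 39 for striatal neurons (1462 CPM), and the immediate early genes of both groups overlap.

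The 4xCHI samples were then set beside the groups with fewer or more injuries at the same 24 h, in a fit of 22 samples. These contrasts use the same 4xCHI samples and are read side by side only. At an unadjusted p under 0.05, 338 genes (2.22%) differed between 4xCHI and 2xCHI, 197 (1.29%) between 4xCHI and 3xCHI, and 972 (6.38%) between 5xCHI and 4xCHI, 567 of them higher and 405 lower in 5xCHI. With only the groups of each contrast fitted the counts were 564, 414 and 351, so that the contrast with 5xCHI then had the fewest, and with 1 sample left out they ran from 171 to 727, from 107 to 294 and from 703 to 1637. None passed an adjusted p of 0.05 by edgeR in any of the 3 contrasts. The smallest p of the last contrast belonged to Svep1, a matrix adhesion gene, at 0.000106 unadjusted and 0.715 adjusted by Benjamini-Hochberg in edgeR. It was -0.89 (log2) in 5xCHI against 4xCHI, and 0.75 in 4xCHI against 2xCHI. Next in the last contrast stood Hdac9 (-0.80), a histone deacetylase, Npas4 (-1.76), an activity-induced neuronal factor, Morf4l2 (-0.27) and the opsin Opn3 (-0.96). Against 3xCHI, the front held Pomc (1.87), the precursor of several peptide hormones, Btg2 (1.38), an activity-induced antiproliferative gene, Eed (0.32), Kl (2.37) and Ttr (4.70), of which Pomc, Kl and Ttr were highest in 4xCHI 24. Pomc was at 6.49, 1.47 and 1.34 CPM in 4xCHI and 0.530 to 1.17 CPM in 3xCHI. Btg2 was at 12.8, 53.4 and 28.0 CPM in 4xCHI and 9.34 to 15.2 CPM in 3xCHI. Against 2xCHI, the front held Bok (-0.37), an apoptosis regulator, Fam199x (0.41), Eed (0.39), Lin28b (-0.92) and Svep1. Eed, a subunit of the Polycomb repressive complex, was at 15.2, 15.3 and 14.1 CPM in 4xCHI and 11.3 to 12.8 CPM in Sham.

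Robo3 and Col4a2, 2 of the front genes of the Sham comparison, followed no steady course with injury number. Robo3 was at 67.0, 56.2, 38.6 and 75.7 CPM after 1xCHI, at 33.0, 78.8 and 73.4 CPM after 2xCHI, at 64.0, 38.3, 42.6 and 39.6 CPM after 3xCHI and at 28.7, 47.8, 51.6 and 57.5 CPM after 5xCHI. Each of those groups reached from within or near the 4xCHI range (33.9 to 42.1 CPM) up to or near the Sham range, and the range within each of them exceeded the difference between the Sham and 4xCHI means. 4xCHI differed from 2xCHI by -0.71 (log2) with an unadjusted p of 0.0228, and from 3xCHI by -0.29. Col4a2 was at 39.5 to 68.8 CPM after 1xCHI, 44.5 to 71.5 CPM after 2xCHI, 51.0 to 69.3 CPM after 3xCHI and 49.9 to 84.5 CPM after 5xCHI. All 3xCHI and 5xCHI samples were above all 4xCHI samples, which lay at 41.5 to 45.1 CPM. The 5xCHI samples were higher than 4xCHI by 0.46 with an unadjusted p of 0.0302. Pxdn was also higher in 5xCHI than in 4xCHI, by 0.65 with an unadjusted p of 0.00233. Its groups overlapped, with 5xCHI 33 at 41.16 CPM and 4xCHI 25 at 42.05 CPM.

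Gfap was at 105 to 213 CPM after 1xCHI, 118 to 141 CPM after 2xCHI and 252 to 528 CPM after 3xCHI, the last of these above all 4xCHI samples but with a log2 difference of -1.09 and an unadjusted p of 0.146. After 5xCHI 3 samples lay at 114 to 191 CPM and 1 at 2417 CPM. The pan-reactive list had a median of -0.96 in 4xCHI against 3xCHI. Hif3a was at 4.70 to 6.41 CPM after 1xCHI, close to the 4xCHI values. It was at 4.84, 6.36 and 9.93 CPM after 2xCHI and 5.34, 7.64, 11.1 and 10.4 CPM after 3xCHI. After 5xCHI it was at 31.6, 24.4, 5.97 and 7.46 CPM. Plin4 split the same 5xCHI samples, at 80.8, 50.6, 4.26 and 6.71 CPM.

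**Figure D5:**
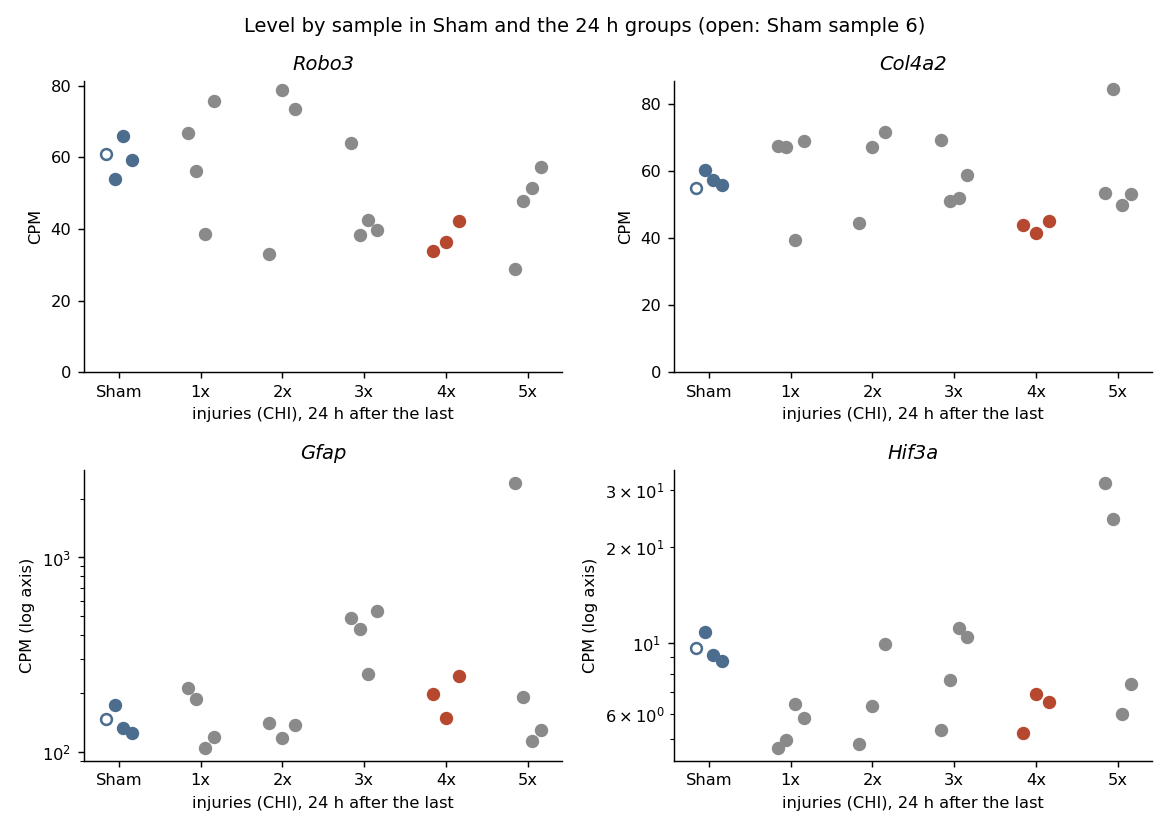
Level (CPM) of Robo3 and Col4a2 (linear axis) and of Gfap and Hif3a (log axis) in Sham and 24 h after 1 to 5 injuries, each point a sample. Robo3 lies at 33.9 to 42.1 CPM at 4 injuries, and samples at or below 42.1 CPM also occur at 1, 2, 3 and 5 injuries, and Gfap is above the 4xCHI samples in every 3xCHI sample and in 1 5xCHI sample (2417 CPM).

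1 locus that failed the count minimum separated the groups completely. Zbed6, an intronless gene for a transcription factor, had 174, 127, 97 and 186 estimated counts in Sham and 0, 0 and 0 after 4xCHI, where a count of 0 allows up to 3 reads. With edgeR's own expression filter it was the single gene past the adjustment, at an adjusted p of 0.0435, and with no filter it and Robo3 passed. Over the 39 samples it was at 0 in 18, and the rest lay between 35 and 324 counts. Of the 10 other groups, 8 held samples at 0 beside samples above 0 and 2 held only samples at 0. The locus (chromosome 1, 133655879 to 133660885, minus strand) lies inside the gene Zc3h11a on the same strand. Annotated exons of the 2 entries named Zc3h11a cover 1.5 and 0 percent of its exon bases. How the counting assigned reads of this locus is not known, and its part in the all-or-none values was not tested.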

How the data were processed

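Bulk RNA of 40 left somatomotor cortices was sequenced, aligned and counted by a sequencing company for the authors. They deposited a table of estimated counts per gene, not normalized, in which 4.46% of values were not whole. The submitters' notes name mouse build mm10, and the deposited column names carry the suffix of salmon's gene-level output, whose version and annotation are not given in the sources used here. Of 55539 features (55536 mouse, 3 human), 55450 matched GENCODE by identifier, whose GRCm38 coordinates are printed. Counts were rounded. Sample 30 was left out, as in the study. Features with at least 10 counts in all but at most 4 of the 39 remaining samples were tested (15224). edgeR 4.0.16 (R 4.3.3) normalized by TMM and fitted the quasi-likelihood test to the 4 Sham and 3 4xCHI samples, with Benjamini-Hochberg adjustment over all tested features. Contrasts with 2xCHI, 3xCHI and 5xCHI came from 22 samples (Sham and all 24 h groups). Printed CPM used TMM factors over the 39 samples. DESeq2 1.42.0, limma 3.58.1, other filters, other sample sets and leaving out each sample were alternatives. The gene tests of the Sham comparison (edgeR, DESeq2 and limma) were tried on simulated counts with known changes, and the other steps were not.

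No replicate number pairs samples across groups. p-values measure the spread between these samples. Named genes were the 12 with the smallest unadjusted p in each direction among genes of at least 1 CPM whose groups do not overlap, list members by level or an unadjusted p under 0.05, and the human features. Col4a1, Dot1l, Pkd1, Cycs, Mapt, Fos, Cldn5, Drd1, Trib2, Gm11518, Zbed6, the untested list members and the front genes of the contrasts were named after their values were seen. The samples compared, the lists and the tests were chosen with earlier results of these data known. The limit of 3 reads for a count of 0 covers counting error only. Some items of the line and of the lists are not reported here.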

Additional observations from a re-analysis of the deposited data

Results flagged for a closer look

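Among 118 levels, sums and library totals of the Sham group examined with Dixon's test, 12 had 1 sample further from the rest than its 95% limit for 4 samples allows, where chance alone gives about 5 percent of groups. The 4xCHI group of 3 was too small for this test. Sham 6 was the distant sample for 8 of them. It was high in summed meningeal genes (1155 CPM, others 784 to 831), summed cholesterol synthesis genes (1624 CPM, others 1572 to 1576), Snrpe (12.1 CPM, others 9.93 to 10.2), Lyz2 (3.82 CPM, others 3.01 to 3.04), the endothelial junction gene Cldn5 (37.2 CPM, others 20.5 to 22.5) and the locus Gm11518 (12.0 CPM, others 1.35 to 3.06). It was low in Cdt1 (1.25 CPM, others 1.57 to 1.63) and in the pseudokinase gene Trib2 (33.3 CPM, others 52.6 to 55.0). Sham 39 stood apart for summed striatal neuron markers (1462 CPM, others 371 to 485) and for Drd1 (41.0 CPM, others 6.64 to 9.24). Sham 20 stood apart for summed genes of the mitochondrial genome (68560 CPM, others 61730 to 62270) and for depth (27859547 summed counts, others 17903157 to 19028778).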

How the results depend on the processing

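The count of genes past an adjusted p of 0.05, 0 in edgeR, was 9 with DESeq2, 1 (Zbed6) with edgeR's own filter, 2 (Zbed6 and Robo3) with no filter, 4 with DESeq2 without Sham 6 (Robo3, Nktr and Trib2 lower, Gm11518 higher), 0 with DESeq2 on samples 19 to 40, and 0 in edgeR with any 1 sample left out. At an unadjusted p under 0.05, the 233 higher genes became 374 with no filter, 98 with 39 samples fitted, 455 with samples 19 to 40, 129 with 22 samples, 122 with 40 samples, and 153 (without Sham 35) to 334 (without Sham 6) leaving 1 out. The 346 lower genes became 148, 120 and 118 with 39, 22 and 40 samples, 192 with length and GC trends removed, and 297 to 437 leaving 1 out. Against 2xCHI, 338 became 564 with those groups alone, 768 with samples 19 to 40, 705 with no filter, and 171 (without 2xCHI 29) to 727 (without 2xCHI 19). Against 3xCHI, 197 became 414, 775 and 605 in the same order, and 107 (without 4xCHI 25) to 294. For 5xCHI against 4xCHI, 972 became 351 with those groups alone, 1468 with no filter, and 703 to 1637 (without 5xCHI 33), with 1612 without 5xCHI 34. The cause was not tested. With the spread of all 39 samples the unadjusted p was 0.0131 for Robo3 and 0.534 for Gfap.

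The sign turned for Ttr (-0.66), Prlr (-0.55) and Cldn5 (-0.078) without 4xCHI 24, for Npas4 (-0.31) and Fos (-0.54) without 4xCHI 25, and for Drd1 (0.14) without Sham 39. With any other sample left out the value furthest from these was 5.03 for Ttr, 2.50 for Prlr, 0.56 for Cldn5, 0.65 for Npas4, 1.07 for Fos and -1.15 for Drd1. Of the other values of named genes, 1513 kept their direction and side of the threshold and 14 moved past it. Of list medians, 869 moved by less than the replicate spread and 34 by more. The immediate early median was -0.24 without 4xCHI 25. Removal of length and GC trends, alone and without Sham 6, and DESeq2 on the smaller sample sets were chosen after the data had been seen. No paired analysis was possible because sample numbers are unique and pair no samples across groups.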
